A study of Arabidopsis thaliana with 12 samples.

Results

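AIG1 (AT1G33960) is the founding gene of a tandem array of 10 GTPase genes on Arabidopsis thaliana chromosome 1, and its mRNA level was described here in seedlings exposed to the volatile compounds of a fungus. The array was AT1G33830, AT1G33870, AT1G33880, AT1G33890, AT1G33900, AT1G33910, AT1G33930, AT1G33950, AIG1 and AT1G33970. These are 10 of the 27366 gene loci named in the deposited tables. AIG1 itself was chosen by its values in the volatile-against-control comparisons at 24 and 48 h, so those values are given as a description. The other 9 were taken because they lie beside AIG1 and belong to the same family. RNA came from whole seedlings, either control or exposed to volatiles of Tolypocladium inflatum GT22, a filamentous fungus, at 3, 24 and 48 h. Each of the 6 groups had 2 libraries, 12 in all, and the labels state no mutation, transgene or other agent in any group. The plants' accession and age are not given in the sources used here. Levels are FPKM, a fragment count corrected for the length of the transcript and for the number of mapped fragments, and each of the 3 deposited tables holds 1 value per gene and group.

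Genes of this family, called IAN in plants and GIMAP in vertebrates, encode small GTP-binding proteins that share the AIG1-type G domain. GTPases of this kind switch between a GTP-bound and a GDP-bound form, and a short phosphate-binding loop near the start of the domain, the P-loop, holds the nucleotide. AIG1 takes its name from "avirulence induced gene": in Arabidopsis its transcript accumulates when the resistance protein RPS2 recognises the Pseudomonas syringae effector AvrRpt2. Plastid import receptors of the Toc complex carry a related G domain.

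In the RefSeq annotation of assembly TAIR10.1, the members lie between bases 12279947 and 12351318 of chromosome 1, a span of 71.4 kb. AIG1, AT1G33910 and AT1G33930 are on the plus strand, 3 genes, and the other 7 are on the minus strand. AIG1 spans chr1:12346138-12348733 and has 6 coding segments and a coding sequence of 1134 bases, the longest of the array. The shortest coding sequence, 678 bases, belongs to AT1G33830. AIG1 and AT1G33970, which spans chr1:12349304-12351318, face each other tail to tail with 570 bases between them. AT1G33950 lies 5728 bases before AIG1. In the deposited tables, which use TAIR10 per the submitters' processing notes, the AIG1 row runs from 12346232 to 12348513, the same in all 3 tables. Its start lies 94 bases after the RefSeq start.

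The stretch of coding sequence that gives the family its GTP-binding signature is shown for each member that holds it. A translated pattern of glycine, any 4 residues, glycine, lysine and serine or threonine was found in 8 of the 10 members, and not in AT1G33870 or AT1G33880. The 24 bases are printed 5′ to 3′ on the coding strand from the RefSeq TAIR10.1 genome, all on chromosome 1. Capitals mark the codons of the first glycine and of the closing glycine, lysine and serine or threonine.
AIG1: GGGcgtacagggaacGGCAAAAGC
AT1G33830: GGTcgtagcgaaaatGGAAAAAGC
AT1G33890: GGAcgtaccggaaacGGAAAAAGC
AT1G33900: GGAcgtaccggaaacGGAAAAAGC
AT1G33910: GGGcctaccggaaacGGGAAAAGC
AT1G33930: GGCcgtactgggaatGGAAAAAGC
AT1G33950: GGCcggacagggaatGGAAAAAGT
AT1G33970: GGCcgtactggaaacGGAAAGAGT
In AIG1 these are coding bases 217 to 240. AT1G33890 and AT1G33900 have identical stretches, and 4 members (AT1G33890, AT1G33900, AT1G33910 and AT1G33930) match AIG1 at 20 of the 24 bases. AT1G33970 matches at 18 and AT1G33830 at 17.

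Over the whole coding sequence the members differ from each other, which bears on whether short reads can be told apart between them. The 45 pairs had 58.0% to 72.0% identical bases over the aligned part, with a median of 65.0%. AIG1 was 60.1% to 67.2% identical to the other 9, closest to AT1G33950. The longest run of identical bases that AIG1 shares with another member is 25. The longest of any pair, 53 bases, is shared by AT1G33890 and AT1G33900. Of 1587 words of 31 bases in the AIG1 exons none occurred a further time in the TAIR10.1 genome, and the same held for AT1G33970 with 1655 words. Shared words were found in AT1G33890 (1.96% of its words), AT1G33900 (2.77%) and AT1G33930 (2.61%). Rules for reads that match several places are not given in the sources used here, so the levels of these last 3 genes are less certain.

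**Figure D1:**
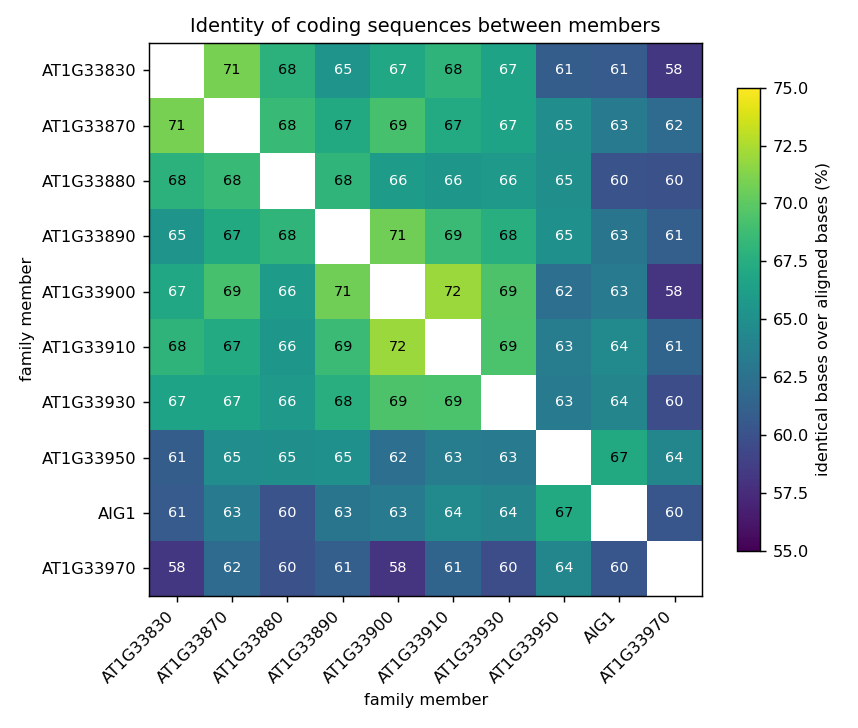
Percentage of identical bases over the aligned part of the coding sequences for each pair of the 10 members, in chromosomal order on both axes; the colour bar is in percent. AT1G33970 and AIG1, at the end of the array, are among the members least like the rest, and the pair of AT1G33900 and AT1G33910 has the highest identity, 72.0%.

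The family divided into 1 gene of moderate level, 2 of low level and 7 near the lower limit of the tables. The abundant member was AT1G33970, a P-loop hydrolase family gene with no symbol in RefSeq. Its control level was 38.9 FPKM at 3 h, 26.0 at 24 h and 33.8 at 48 h. In seedlings exposed to volatiles it was 35.9, 24.5 and 31.02 FPKM at the same times. Its control level was above 82.4%, 75.1% and 79.8% of all rows listed above 0 in the 3 tables. AT1G33930, another P-loop hydrolase family gene, was the next to exceed 1 FPKM in every group, with a control level of 1.34, 1.95 and 3.59 FPKM. Under the volatiles it was 1.66, 1.92 and 2.12 FPKM. AIG1 was the third gene, and the member whose level varied most between groups, from 0.158 to 10.3 FPKM.

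The other 7 members stayed below 1 FPKM in every group. AT1G33830 was listed at 0 in all 6 groups. AT1G33870 was at 0.0562 FPKM in control and 0.142 under the volatiles at 3 h, and at 0.346 and 0.399 at 48 h. Its neighbour AT1G33880, listed at 0 for control and volatiles at 3 h, was at 0.270 in control and 0.113 under the volatiles at 48 h. At 24 h the tables give these 2 genes as a single merged row, with 0.482 FPKM in control and 0.505 under the volatiles. The 2 members without the P-loop pattern were among these 7. So were AT1G33830, AT1G33890, AT1G33900, AT1G33910 and AT1G33950, which hold it.

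AT1G33890, which shares its P-loop bases with AT1G33900, was at 0.0955 and 0.0577 FPKM in control and volatile seedlings at 3 h, 0.301 and 0.451 at 24 h, and 0.285 and 0.417 at 48 h. AT1G33900 was listed at 0 in control and at 0.169 under the volatiles at 3 h, then at 0.0835 and 0.0741, and at 0.168 and 0.195. Neither gene was tested by the authors at any time. AT1G33910 was at 0.185 and 0.0993 FPKM at 3 h, listed at 0 and at 0.0280 at 24 h, and at 0.0546 and 0.181 at 48 h. AT1G33950, the member closest to AIG1 in coding sequence, was listed at 0 in control at 3 and 48 h and at 0.0772 at 24 h. Its volatile levels were 0.129, 0.0686 and 0.343 FPKM. At levels this low a ratio between groups rests on few fragments, and a group listed at 0 gets no fold.

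**Figure D2:**
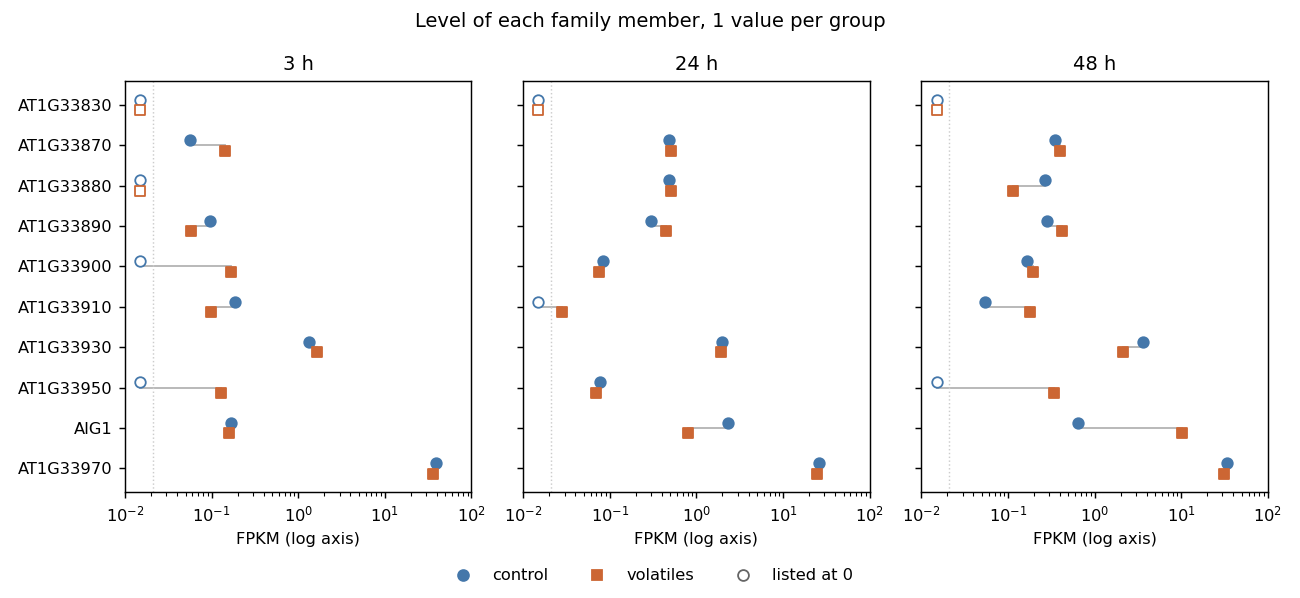
FPKM (log axis) of the 10 members in control (blue circles) and volatile-exposed seedlings (orange squares) at 3, 24 and 48 h, 1 value per group; open symbols left of the dotted line are listed at 0, and at 24 h AT1G33870 and AT1G33880 share 1 merged row drawn at both. AT1G33970 stays between 24.5 and 38.9 FPKM, while AIG1 moves from 0.166 FPKM or less in both groups at 3 h to 10.3 FPKM under the volatiles at 48 h.

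AIG1 was scarcely detected at 3 h, with 0.166 FPKM in control and 0.158 FPKM in volatile-exposed seedlings, and the authors did not test it. At 24 h it was at 2.30 FPKM in control and 0.799 under the volatiles. At 48 h it was at 0.638 FPKM in control and 10.3 under the volatiles. The volatile group was thus the lower one at 24 h and the higher one at 48 h. In log2 terms the 24 h difference was -1.52 with an error of 0.51, the control level being 2.88-fold the volatile level. The authors' deposited table gives it q = 0.42, above the 0.05 used for a call. The 48 h difference was 4.02 with an error of 0.56, or 16.2-fold, and the authors' deposited table gives it q = 0.022. These 2 differences are what AIG1 was chosen by and are not evidence of their own. The error is implied by the deposited statistic, as the fold change over it, and covers the spread the authors' test saw between 2 libraries. The labels do not say whether the 2 libraries of a group are separate cultures, so their p-values may reflect technical spread alone. In RNA from whole seedlings, a change in the number of expressing cells and a change in RNA per cell cannot be told apart.

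Among all rows at 48 h, the AIG1 fold was near the top. Of 18234 rows averaging 1 FPKM or more with both groups above 0, 3 had a higher fold. They were AT2G39030 (NATA1), which encodes an acetyltransferase acting on ornithine, at 0.0819 FPKM in control and 7.27 under the volatiles; AT2G24850 (TAT3), a tyrosine aminotransferase, at 0.148 and 11.3; and a merged row of AT3G13403 and AT3G13404 at 1.17 and 29.9. Of these 3 only the merged row passed the authors' q-value threshold. At 24 h, 33 of 18049 rows had a lower fold than AIG1. These ranks describe the values by which the gene was chosen.

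The order of the 6 AIG1 levels was volatile at 3 h, control at 3 h, control at 48 h, volatile at 24 h, control at 24 h and volatile at 48 h. The tables were normalized separately, so levels from different times are compared with caution. The spread between libraries within a group is not in the tables. Whether neighbours in that order differ beyond it therefore could not be judged. The control level at 24 h was 13.9-fold the control level at 3 h and 3.61-fold that at 48 h. The low AIG1 fold at 24 h thus stood against the highest of the 3 control levels, and the high fold at 48 h against a lower one. Set against the highest control level of any time, the volatile level at 48 h was 4.49-fold that control.

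The difference between the highest and lowest control level over the 3 times was large for AIG1 beside other genes. A ratio of at least 13.9 was found in 53 of 16546 genes, or 0.320%, where the median ratio was 1.27. In volatile-exposed seedlings the ratio was 65.5, and 0.0484% of 16544 genes had one as large. Genes listed at 0 in that group at any time have no ratio and are not in these shares, though they may vary more. The AIG1 ratios rest on its untested 3 h levels, 0.166 FPKM in control and 0.158 under the volatiles. AT1G33970 had control and volatile ratios of 1.49 and 1.46, and 26.2% of genes had a control ratio at least that large. AT1G33930 had 2.68 in control and 1.28 under the volatiles. The AIG1 ratios use the levels at 24 and 48 h by which the gene was chosen, so their rank among genes follows in part from that choice and supports nothing.

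Read across the family, the volatiles produced no call outside AIG1. At 3 h the authors tested 2 member rows, AT1G33930 and AT1G33970, and called 0, while 0.113% of the 19480 tested rows were called. By the authors' deposited table neither had an unadjusted p under 0.05 (0 rows), which 2.24% of all rows had. At 24 h they tested 4 member rows and called 0, beside 0.124% of 19326 rows. The 1 member row with an unadjusted p under 0.05 was AIG1, chosen for it, beside 2.96% of all rows. At 48 h they tested 3 member rows and called 1, AIG1, which was higher. The background was 0.252% of 19415 rows in either direction and 0.216% higher under the volatiles. AIG1 and AT1G33930 had an unadjusted p under 0.05 at 48 h, beside 2.76% of all rows. The 8, 5 and 7 untested member rows at 3, 24 and 48 h were at 0 to 0.185, 0.451 and 0.417 FPKM, so the calls say nothing of them.

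AT1G33970, the most abundant member, had the smallest implied errors of the family. Its log2 fold change was -0.11 at 3 h, -0.09 at 24 h and -0.12 at 48 h, with errors of 0.24, 0.27 and 0.25. The 95% intervals were -0.59 to 0.36, -0.62 to 0.45 and -0.62 to 0.38. Each interval spans 0, and a change of the size of AIG1's at either time lies outside it. The authors' deposited table gives p = 0.50, 0.66 and 0.50. The genes stand 570 bases apart.

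AT1G33930 was the other member tested at all 3 times. Its log2 fold change was 0.31 with an error of 0.56 at 3 h, -0.03 with an error of 0.54 at 24 h and -0.76 with an error of 0.47 at 48 h. At 48 h the level was 3.59 FPKM in control and 2.12 under the volatiles, the opposite order from AIG1. The authors' deposited table gives that difference p = 0.022 and q = 1.0, so it was not called. The 95% interval from the implied error, -1.67 to 0.15, spans 0.

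Whether a fold change differed between times was tested for these 2 members, with Benjamini-Hochberg adjustment over all rows averaging 1 FPKM or more. For AT1G33930 the fold change at 48 h minus that at 24 h was -0.73 (95% interval -2.13 to 0.66), and that at 48 h minus that at 3 h was -1.07 (-2.49 to 0.35). The 24 h minus 3 h difference was -0.33 (-1.85 to 1.19). For AT1G33970 the same 3 differences were -0.04, -0.01 and 0.03, with intervals no wider than -0.77 to 0.75. The adjusted p was 1.0 for each of the 6, and the unadjusted p of none was under 0.05. Few rows of any kind reached that level. They were 50 of 16760 for 24 h against 3 h, 75 of 16881 for 48 h against 3 h and 72 of 16905 for 48 h against 24 h. The test thus seldom passes a gene, and the 6 results say little about these 2 members. Of all rows, 0% passed for 24 h against 3 h, 0.0296% for 48 h against 3 h and 0.00592% for 48 h against 24 h. That last share is 1 row of 16905, and it is AIG1, which was chosen for this difference.

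**Figure D3:**
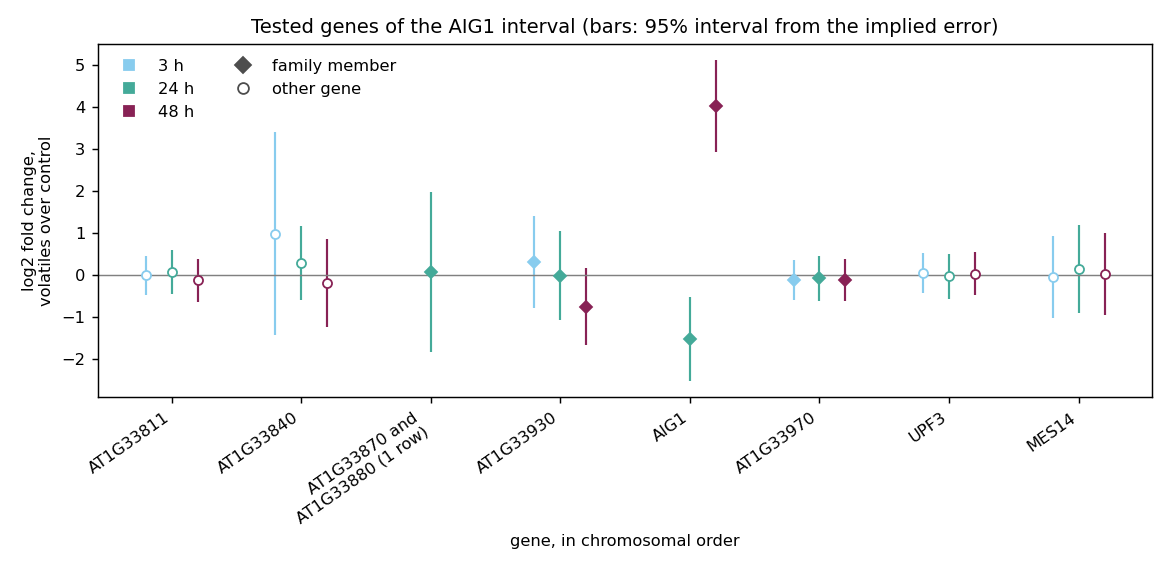
Log2 fold change (volatiles over control) of each tested gene between AT1G33811 and AT1G33990, in chromosomal order, at 3, 24 and 48 h; bars are 95% intervals from the implied error, filled diamonds are family members and open circles are other genes. AIG1 stands at -1.52 at 24 h and 4.02 at 48 h, and the intervals of every other gene drawn span 0. The implied error tends to exceed the one behind the deposited p-value. AT1G33930 at 48 h had p = 0.022 by the authors' deposited table.

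With both groups above 0, member rows had a median log2 fold change of -0.09 at 3 h (6 rows), -0.09 at 24 h (7 rows) and 0.21 at 48 h (8 rows). Over all rows the medians were -0.0095, -0.021 and -0.0030. Of the member values at 48 h, 5 were above 0 and 3 below, beside 49.3% above 0 over all such rows. The 5 include AIG1, which was chosen by its 48 h value. The medians without AIG1 were -0.11, -0.06 and 0.21, the last the same with and without it. Most of these rows lie below 1 FPKM and were not tested. Over member rows averaging 0.5 FPKM or more, the medians at 3 and 48 h took the other sign, 0.10 and -0.12. At 3 h those rows were AT1G33930 and AT1G33970 alone. At 48 h they were these and AIG1, so -0.12 is the value of AT1G33970.

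**Figure D4:**
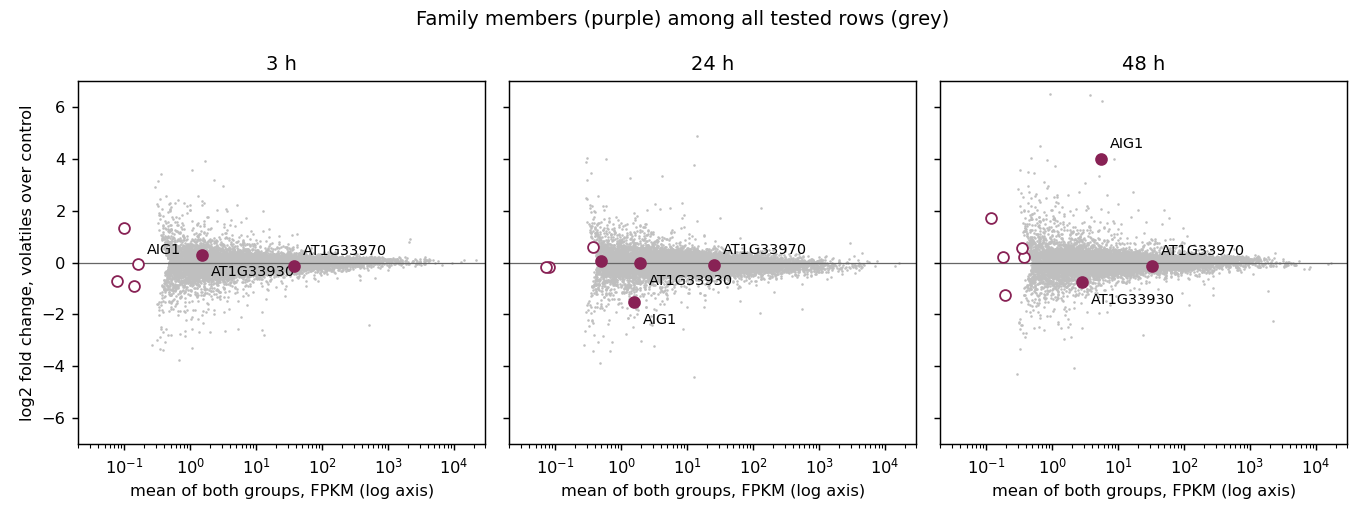
Log2 fold change (volatiles over control) against the mean FPKM of both groups (log axis) at 3, 24 and 48 h for all tested rows (grey) and family members (purple; filled where tested, open where not). AIG1 lies at the lower edge of the cloud at 24 h (-1.52) and above nearly all of it at 48 h (4.02), while AT1G33970 lies in its middle at each time.

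The genes between AT1G33811 and AT1G33990 that are not family members gave a local comparison. The annotation has 25 genes in these 90.2 kb, of which 15 are not members, and 9 of those had a row. No such gene shared a row with a member. Of the 9, 5 were listed at 0 in every group and 4 were tested at all 3 times. None of the 4 was called at any time, and their log2 fold changes lay between -0.20 and 0.97. They were AT1G33811, AT1G33840, UPF3, a factor of nonsense-mediated mRNA decay, and MES14, a methylesterase. UPF3 lies 247 bases from AT1G33970, head to head, and was at 16.8 FPKM in control and 17.1 under the volatiles at 48 h. MES14 was at 34.6 and 35.3 FPKM in the same groups.

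The sequence just upstream of AIG1 is shown because it is the stretch next to the one member with a called difference, with that of the abundant AT1G33970 for comparison. The windows are 250 bases before the RefSeq start, read from TAIR10.1 5′ to 3′ on the gene's strand. AIG1's is chr1:12345888-12346137 on the plus strand and AT1G33970's is chr1:12351319-12351568 on the minus strand, most of it the gap to UPF3.
AIG1 upstream window: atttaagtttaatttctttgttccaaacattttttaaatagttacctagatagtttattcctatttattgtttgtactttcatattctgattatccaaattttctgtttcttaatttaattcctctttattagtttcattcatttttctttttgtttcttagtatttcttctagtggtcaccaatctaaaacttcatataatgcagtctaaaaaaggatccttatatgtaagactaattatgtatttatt
AT1G33970 upstream window: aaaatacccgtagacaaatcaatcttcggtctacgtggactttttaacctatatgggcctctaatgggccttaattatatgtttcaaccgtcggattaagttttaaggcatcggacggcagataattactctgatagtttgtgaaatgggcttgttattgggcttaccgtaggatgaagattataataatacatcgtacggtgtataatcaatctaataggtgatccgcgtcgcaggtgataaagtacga
The AIG1 window had 22.8% G and C, against 39.2% for AT1G33970. Both strands were searched for TTGAC, the core of the W-box bound by WRKY factors, TGACG, the core bound by TGA factors, and CACGTG, the G-box; TTGAC and TGACG can overlap. None of the 3 was in either window. Of 27443 such windows over all genes, 44.9% held TTGAC, 18.6% TGACG and 6.49% CACGTG. Among the 10 members, 4 windows held TTGAC (AT1G33880, AT1G33900, AT1G33910 and AT1G33950), 1 held TGACG (AT1G33890) and 0 held CACGTG. The absence of these letters says only that they are not in 250 bases.

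The genes whose 3 fold changes lay nearest to AIG1's were found among 16663 genes by distance over the log2 fold changes at 3, 24 and 48 h, with 0.5 FPKM added to each value. On that scale AIG1 was at -0.02, -1.11 and 3.25. The nearest, at a distance of 0.53, was PDF1.2c (AT5G44430), a plant defensin, at 0.00, -1.37 and 2.79. It was at 2.16 FPKM in control and 0.531 under the volatiles at 24 h, and at 0.905 and 9.20 at 48 h. The authors' deposited table gives it q = 0.87 at 48 h, and it has near-identical defensin copies whose reads the counting could split. Next came FAMT (AT3G44860), a carboxyl methyltransferase for farnesoic acid, at a distance of 0.84. It rose at 48 h, from 1.02 FPKM in control to 16.2 under the volatiles. The third, LCR37 (AT4G13095), a low-molecular-weight cysteine-rich peptide gene, was listed at 0 in 5 groups and at 3.99 FPKM under the volatiles at 48 h. The mitochondrial locus ATMG01220 was listed at 0 in the 48 h control and at 3.06 FPKM under the volatiles. DIN11 (AT3G49620), a dioxygenase family gene named for induction by darkness, rose at 48 h, from 1.90 to 11.6 FPKM. FAMT and DIN11 were at 0.575 and 0.328, and at 1.21 and 0.838 FPKM, in control and volatiles at 24 h, neither called. Adding 1 FPKM in place of 0.5 kept 3 of the 5.

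The 5 highest log2 fold changes at 48 h on this scale were AT1G53541, the chloroplast loci ATCG00630 and ATCG00070, AT3G48346 and AT1G53542. Each was listed at 0 in the 48 h control, so no fold is given for them, and the authors called none.

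Genes outside the array that encode the same kind of domain showed no call. Of 4 loci (AT2G26820, AT4G09930, AT4G09940 and AT4G09950), 2 were tested at each time, and none was called or had an unadjusted p under 0.05 by the authors' deposited table (0 of 2). PP2-A3 (AT2G26820), a phloem lectin gene whose product also carries the domain, was at 5.09 FPKM in control and 6.63 under the volatiles at 48 h, a log2 fold change of 0.38 with an error of 0.39. AT4G09950 was at 3.85 and 3.80 FPKM. AT4G09930 was listed at 0 everywhere, and AT4G09940 never passed 0.179 FPKM. Over genes with both values above 0, the list's median log2 fold changes were 0.05, -0.0062 and 0.18 at 3, 24 and 48 h. Over the 2 tested genes alone they were -0.04, 0.16 and 0.18.

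The 6 GTPases of the Toc complex are receptors for protein import into plastids. TOC33 and TOC120 were read only from rows merged with another gene. All 6 were tested at each time, and 0 were called or had an unadjusted p under 0.05. Their medians were 0.0065, 0.0035 and 0.05. At 48 h TOC34 was at 42.3 FPKM in control and 44.4 under the volatiles, TOC132 at 15.2 and 15.8, and TOC90 at 10.8 and 11.2.

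The pathway in which AIG1 was named was read through 7 genes of AvrRpt2 recognition and the AIG2 family, all tested at each time with 0 called. The medians were -0.03, -0.06 and -0.0036. AIG2 (AT3G28930), found with AIG1 as a gene induced by the same effector, was the 1 gene of the 7 with an unadjusted p under 0.05, at 48 h, beside 2.76% of all rows. Its level was 17.5 FPKM in control and 17.7 under the volatiles at 3 h, 16.7 and 17.7 at 24 h, and 21.6 and 35.9 at 48 h. The 48 h log2 fold change was 0.73 with an error of 0.29, and the authors' deposited table gives q = 0.15, so it was not called. NDR1, a membrane protein needed for RPS2 signalling, was at 6.32 and 5.65 FPKM, and AT3G28940, an AIG2 relative, at 228.9 and 242.9 at 48 h. The receptor RPS2 itself was at 2.57 and 2.46 FPKM, and RIN4, the protein that AvrRpt2 cleaves, at 23.4 and 23.9.

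Of 16 genes of salicylic acid synthesis and systemic resistance, 10, 12 and 14 were tested at 3, 24 and 48 h, and 0 were called. Over genes with both values above 0, tested or not, the median log2 fold change was 0.06 and -0.07 at the first 2 times and 0.50 at 48 h. At 48 h, 12 of these 15 genes had a log2 fold change above 0, beside 49.3% of all such rows. The other 3 were NIMIN1 at -0.54, which was not tested, WRKY70 at -0.06 and NPR1 at -0.03. PR1 was listed at 0 in both groups at 24 and 48 h. Over tested genes alone the medians were -0.04, -0.08 and 0.52. The genes with an unadjusted p under 0.05 by the authors' deposited table numbered 0, 0 and 3, the last of 14 tested, beside 2.76% of all rows at 48 h. PBS3 (AT5G13320), which conjugates isochorismate to glutamate, was at 0.194 FPKM in control and 1.51 under the volatiles at 48 h, and the authors' deposited table gives q = 0.11. FMO1, which makes N-hydroxypipecolic acid, was at 0.214 and 1.08 FPKM, with q = 0.66 by the authors' deposited table. ICS1, which makes isochorismate, was at 7.74 and 10.96 FPKM, with q = 1.0 by the authors' deposited table. None of these 3 was called.

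The unfolded protein response in the endoplasmic reticulum was read through 12 genes, ERDJ3A at 48 h from a merged row of 3 genes. All 12 were tested at each time, and 0 were called. Their medians were -0.0063, 0.11 and 0.27, and 6, 9 and 11 of the 12 values lay above 0, beside 47.5%, 45.8% and 49.3% of all rows. BIP3 (AT1G09080), a stress-inducible chaperone of the HSP70 class, was at 0.244 FPKM in control and 1.39 under the volatiles at 48 h, a log2 fold change of 2.50 with an error of 0.70. The authors' deposited table gives it q = 0.063. At 3 h and at 48 h it was the 1 gene of the 12 with an unadjusted p under 0.05, beside 2.24% and 2.76% of all rows. At 3 h it was lower under the volatiles, at 0.540 FPKM in control and 0.211. The constitutive BIP1 was at 137.4 and 173.8 FPKM and the chaperone CNX1 at 130.9 and 163.4 at 48 h.

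**Figure D5:**
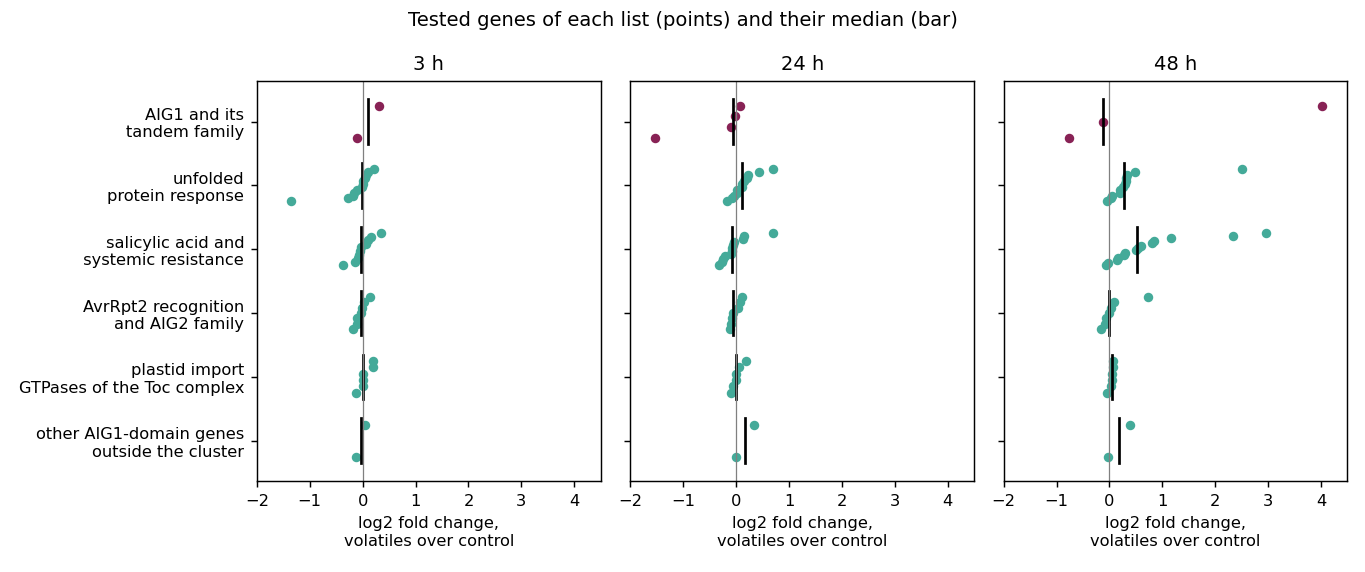
Log2 fold change (volatiles over control) of each tested gene (points) at 3, 24 and 48 h for the family (purple) and 5 related lists (green), with the median of the tested genes as a black bar. At 48 h AIG1 at 4.02 lies to the right of every other point, ahead of PBS3 at 2.95 and BIP3 at 2.50, and none of the listed genes other than AIG1 was called.

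Marker genes matched the label of whole seedlings. The 3 leaf markers were at 1490 to 22219 FPKM in every group, the 4 root and root hair markers at 4.39 to 53.3, and the floral genes AP3, PI and AG at 0.0833 to 0.460. Summed over the list, the root markers were at 92.2, 98.3 and 96.8 FPKM in control and 94.5, 78.8 and 84.8 under the volatiles at 3, 24 and 48 h. One of them, TIP2;3, an aquaporin of the vacuolar membrane, fell at 24 h, from 21.5 to 9.42 FPKM (q = 0.040, the authors' deposited table). At 48 h it was at 17.0 FPKM in control and 10.4 under the volatiles, not called (q = 0.53, the authors' deposited table). TIP2;3 was the only 1 of the 4 root markers called, and only at 24 h. The other 3 root markers had log2 fold changes of 0.11, -0.14 and -0.17 at 24 h and -0.15, 0.10 and -0.19 at 48 h (COBL9, EXPA7 and PRP3), none called. The leaf markers summed to 35216, 35060 and 35999 FPKM in control and 36713, 32689 and 35080 under the volatiles. The part of tissue makeup in the AIG1 values was not tested.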

How the data were processed

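RNA-seq was made from whole seedlings in 6 groups of 2 libraries. Reads were handled with Trimmomatic 3.6 and TopHat on TAIR10, per the submitters' processing notes; the tools that wrote the tables are not given in the sources used here, and the columns have the Cuffdiff layout, per the file headers. The authors deposited 1 FPKM value per gene and group, with p-values and q-values, and a deposited test statistic (a score) for volatiles against control. Each table's time comes from its name. Library depth is unknown, and no value per library is held, so the planned library-level fit, the paired fit and leaving out a replicate were not run. Per-sample columns left aside numbered 0.

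Log2 fold changes were computed from FPKM with no pseudocount. A row was called at a q-value under 0.05. Benjamini-Hochberg adjustment was repeated, and the largest gap to a deposited q-value was 5.2e-07. The implied error (fold change over statistic) assumes that the statistic is a ratio to its error. It can exceed the error behind the deposited p-value, as for AT1G33930 at 48 h, where p was 0.022 and the interval spans 0. Median implied errors were 0.29, 0.31 and 0.31 at 3, 24 and 48 h. Differences between times used a two-sided normal test with these errors. It was run on simulated fold changes drawn from the same errors, which cannot show whether the errors fit these data. Merged rows numbered 894, 1054 and 1018. Members and gene lists were chosen with earlier results of these data known. All members are named. Of each list, called genes are named and otherwise up to 3 with the smallest p-value at 48 h. RPS2, RIN4, AT4G09930, AT4G09940, NIMIN1, WRKY70, NPR1, PR1 and BIP3 at 3 h were added after their values were seen. So were NATA1, TAT3 and the merged row. Of genes like AIG1, the 5 nearest and the 5 highest at 48 h are named; of neighbouring genes, those called were to be named, and the 4 tested ones were added after their values were seen.

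Sequences, coding lengths and promoter windows come from RefSeq TAIR10.1 by its own coordinates, and for all 30 combinations of member and time the table row overlapped the RefSeq gene. Python 3.11.15, pandas 2.3.3, scipy 1.17.1 and Biopython 1.88 were used. Alternatives were a mean of at least 1 FPKM, the statistic read as a normal deviate, pseudocounts of 0.1 and 1, a minimum mean of 0.5 FPKM for member medians, centring, and leaving out merged rows.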

Additional observations from a re-analysis of the deposited data

How the results depend on the processing

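The member calls, 0, 0 and 1 at 3, 24 and 48 h, were the same with rows filtered on a mean of at least 1 FPKM and when the statistic was read as a normal deviate, and 0 members other than AIG1 differed between times with or without the filter. Reading the statistic as a normal deviate was the stricter choice and moved the rows called to 9, 12 and 21 from 22, 24 and 49. Why the 2 readings differ was not tested. The member median at 48 h, 0.21, was -0.12 with member rows of a mean of at least 0.5 FPKM, which leaves only AIG1, AT1G33930 and AT1G33970. At 3 h that filter leaves only AT1G33930 and AT1G33970 and turned the sign, 0.10 in place of -0.09. Adding 1 FPKM took the AIG1 log2 fold change to -0.87 at 24 h and 2.79 at 48 h and kept 3 of the 5 nearest genes. No paired analysis was possible because the tables hold 1 value per group, and leaving out a replicate in turn was not run for the same reason. Depth is unknown, and the authors tested 2, 4 and 3 member rows at 3, 24 and 48 h, so nothing is shown for the other members.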

Other observations

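AT1G33840, a gene of the LURP-one-like family that lies inside the array without belonging to it, was low at 3 h in both groups and higher at the later times. It was at 0.312 FPKM in control and 0.613 under the volatiles at 3 h, 5.16 and 6.31 at 24 h, and 4.21 and 3.65 at 48 h. The ratio of its highest to its lowest control level, 16.6, was reached by 40 of 16546 genes (0.242%), and that of the volatile group was 10.3. Genes listed at 0 in control at any time have no ratio and are not among the 16546. AT1G33840, AIG1 and AT1G33890 each had the lowest control level at 3 h and the highest at 24 h. AT1G33890 was not tested, and its control levels, 0.0955, 0.301 and 0.285 FPKM, are near the lower limit. The AIG1 levels at 24 and 48 h are those it was chosen by. The more steadily detected members had other orders, with AT1G33930 highest in control at 48 h and AT1G33970 at 3 h. How many of all genes are lowest at 3 h and highest at 24 h was not counted. The tables were normalized separately, the spread between libraries is not in them, and AT1G33840 was picked after its values were seen.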
